A study of Mus musculus with 6 samples.

Results

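Genes of the R-spondin branch of Wnt signalling were read on arrays of sorted mouse breast cancer cells: the receptors Lgr4, Lgr5 and Lgr6, the ligands Rspo1, Rspo2 and Rspo3, the ubiquitin ligases Znrf3 and Rnf43, the feedback scaffold Axin2 and the transcription factor Lef1. They were chosen by name, and every probe set whose single gene symbol in the platform annotation was one of these names was taken, which gave 18 of the 45037 probe sets tested and 10 of the 18193 genes. Per the labels, cells grown in serum-containing medium were sorted on CD24, a surface glycoprotein encoded by Cd24a, and CD29, the product of the integrin gene Itgb1. Cells positive for both (CD24+CD29+) and cells negative for both (CD24-CD29-) were each hybridised on 3 Affymetrix Mouse430_2 arrays, and the labels give both groups the cell type breast cancer stem cells and no treatment beyond the sort. The labels name no cell line, strain, age or tumour model. The design text describes independent biological sets without saying whether cultures, sorts or animals were separate, so p-values cover the spread of these samples alone, which may in part be technical.

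R-spondins are secreted proteins that bind an Lgr receptor and, with it, the membrane ubiquitin ligases Znrf3 and Rnf43. The ligases otherwise send Frizzled, the Wnt receptor, to degradation, and their removal by R-spondin leaves more Frizzled at the surface and strengthens the response to Wnt. Beta-catenin then joins Lef and Tcf factors on DNA. Among the genes switched on in this way in many tissues are Axin2, Znrf3, Rnf43 and Lgr5, of which the first 3 damp the signal. In the mammary gland Rspo1 is known as a luminal product that acts with Wnt on basal cells, and Lgr5, Lgr6 and Axin2 are used to mark subsets of epithelial cells.

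The values are log2 expression after RMA, as deposited, and a difference is the CD24+CD29+ mean less the CD24-CD29- mean, with the standard error (SE) of a limma fit over all probe sets. A gene is given by its brightest probe set not ending in _x_at, and passes at a Benjamini-Hochberg adjusted p below 0.05. Over probe sets, the correlation was 0.997 to 0.998 within a group and 0.974 to 0.979 between the groups, and no array stood apart. Itgb1 was higher in CD24+CD29+ cells by 0.87 on its main probe set. Its other probe sets gave 0.72, 0.45, 0.32, 0.27 and, on the dimmest, -0.17. The probe sets of Cd24a gave 0.21, 0.20 and -0.45. RNA of both sort genes was bright in both groups, also in the cells sorted as negative. Their main probe sets stood at 10.94 in CD24+CD29+ and 10.06 in CD24-CD29- cells for Itgb1, and at 13.00 and 12.79 for Cd24a. Keratins of both mammary epithelial layers were bright in both groups, with mean levels in CD24+CD29+ and CD24-CD29- cells of 13.50 and 13.67 for Krt8, 12.41 and 12.83 for Krt18, 13.66 and 13.01 for Krt5, and 12.58 and 11.59 for Krt14. Epcam, an epithelial adhesion gene, stood at 14.11 and 14.13. Ptprc, which marks leukocytes, stood at 4.85 and 4.94, below the lower quartile of every array, 5.20 to 5.41. The poly-A control RNAs added to the samples had a median difference of -1.17 over 24 probe sets, with a range of -1.55 to -0.42. Scaling used their mean on each array, so its size depends on which controls are averaged. When arrays were scaled to these controls, the median difference of all probe sets went from -0.05 to 1.03 and every lower member turned positive, so the directions below hold for the values as deposited and say where a gene moved against most others.

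On that scale, CD24+CD29+ cells had higher RNA of the receptors Lgr5 and Lgr6 and of the ligase Znrf3, and lower RNA of the ligands Rspo1, Rspo2 and Rspo3, of Rnf43, of Axin2 and, at the edge of the threshold, of Lef1. Of these calls, those of Lgr6, Rspo2, Rspo3, Rnf43 and Lef1 were lost after quantile normalization and after cyclic loess. All of the lower genes turned higher on poly-A scaled arrays, where 98.5% of all probe sets passed as higher. By limma 3 of the 10 genes passed as higher and 6 as lower, and Lgr4 did not pass. Of the 18 probe sets, 5 passed as higher and 8 as lower, against 63.9% of all probe sets in either direction. Over all genes, 68.9% passed, 33.4% as higher and 35.5% as lower, so passing is common here and the sizes say more than the count. The groups did not overlap for 9 of the 10, against 73.6% of all genes. The median difference of the 10 genes was -0.21, and that of all genes -0.04. In RNA from whole sorted populations, fewer cells that express a gene and less RNA in each cell cannot be told apart.

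**Figure D1:**
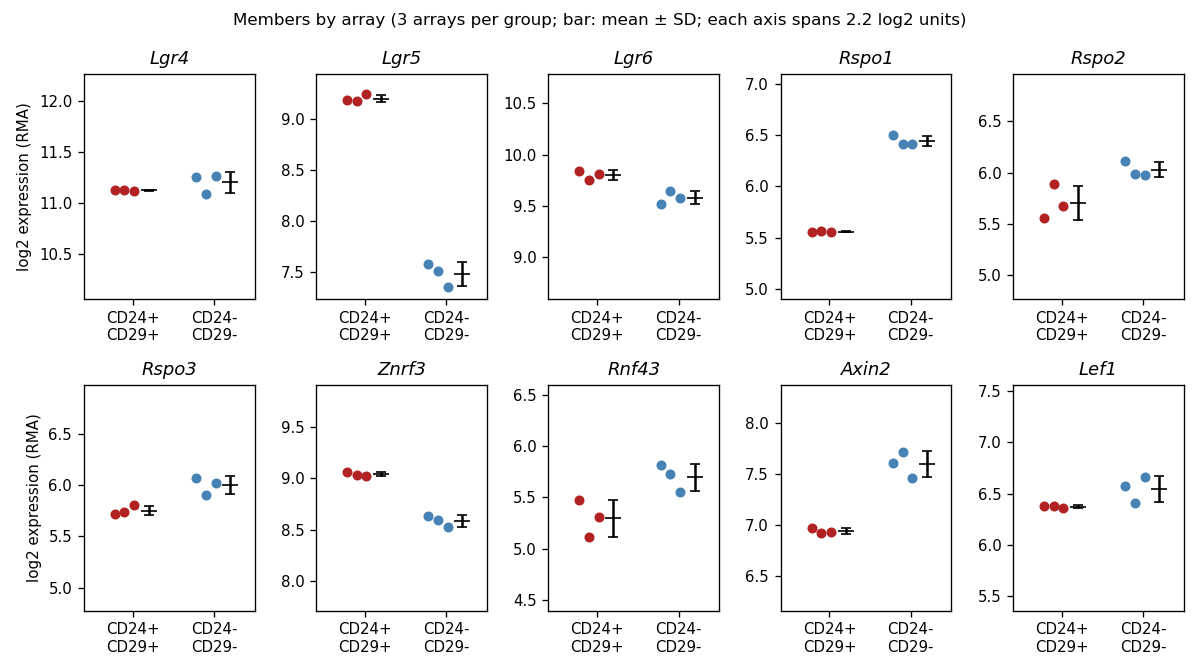
Log2 expression of the 10 genes on each array, at each gene's main probe set, for CD24+CD29+ (red) and CD24-CD29- (blue) cells, with the mean and SD of 3 arrays; every vertical axis spans 2.2 log2 units, so the gaps can be compared between panels. Lgr5 shows the widest gap, with red above blue, Rspo1 and Axin2 show red below blue, and Lgr4 overlaps; on arrays scaled to the poly-A controls the lower genes turn higher.

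Lgr5, an R-spondin receptor that marks stem cells in several epithelia, had the largest difference of the 10. It stood at 9.18, 9.17 and 9.24 on the CD24+CD29+ arrays and at 7.58, 7.52 and 7.35 on the CD24-CD29- arrays. All 3 CD24+CD29+ arrays lay far above the others, and the spread within either group was small beside the gap. The difference was 1.71 (SE 0.07, 95% interval 1.56 to 1.86), or 3.27-fold, with a limma adjusted p of 3.6e-07. Among 2182 genes with a mean level of 8 to 9, 16 (0.73%) had a higher difference. Lgr5 has another probe set, which was dim, at 5.13 ± 0.08 against 5.16 ± 0.14 (mean ± SD, n = 3), and whose groups overlapped (-0.03, 95% interval -0.21 to 0.15). The mean of both probe sets gave 0.84, with the same call.

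Lgr6, the receptor that marks stem cells of the skin and is also found in the mammary gland, stood at 9.84, 9.75 and 9.81 against 9.52, 9.64 and 9.58. The groups did not overlap, but the gap was narrow. It was higher in CD24+CD29+ cells by 0.22 (SE 0.06), or 1.17-fold, with a limma adjusted p of 0.0077, and the other probe set gave 0.21 (SE 0.07, adjusted p = 0.030), a call lost without CD24+CD29+ replicate 2 or 3 or CD24-CD29- replicate 1 or 2 (adjusted p up to 0.099). The median difference of the 2239 genes with a mean level of 9 to 10 was 0.21, so Lgr6 lay at the middle of its level class. After quantile normalization and after cyclic loess, which remove differences tied to level, Lgr6 no longer passed, at 0.06 and 0.04.

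Lgr4, the most widely expressed receptor of the family, was bright in all arrays. It stood at 11.13, 11.13 and 11.12 on the CD24+CD29+ arrays and at 11.26, 11.09 and 11.27 on the CD24-CD29- arrays. CD24-CD29- replicate 2 lay below all CD24+CD29+ arrays, and the groups overlapped on the other probe set too. The difference was -0.08 (95% interval -0.22 to 0.06, limma adjusted p = 0.29). Quantile normalization and cyclic loess gave -0.16 and -0.18, both past the threshold, and poly-A scaling gave 1.00.

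**Figure D2:**
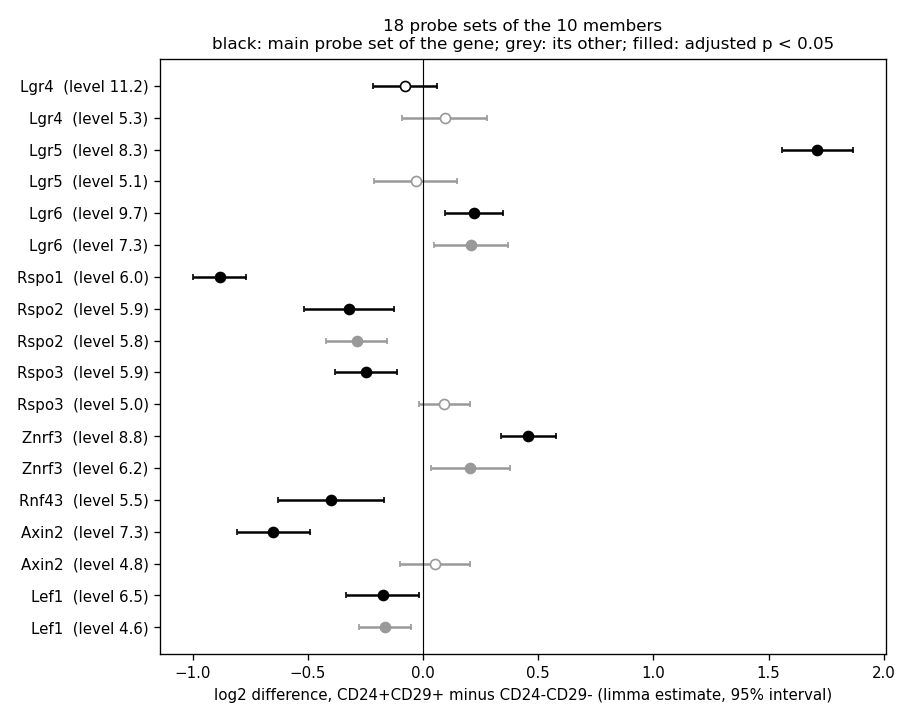
Difference of each of the 18 probe sets (log2, CD24+CD29+ less CD24-CD29-) with limma's 95% interval; black marks the probe set that stands for the gene, grey its other, filled symbols an adjusted p below 0.05, and the mean level over 6 arrays is in parentheses. The other probe sets of Lgr6, Rspo2, Znrf3 and Lef1 passed in the same direction, and those of Lgr4, Lgr5, Rspo3 and Axin2, at levels of 4.8 to 5.3, did not pass.

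Of the ligands, Rspo1 had the clearest difference. Its single probe set read 5.56 on each of the CD24+CD29+ arrays and 6.50, 6.41 and 6.41 on the CD24-CD29- arrays. The CD24+CD29+ values were nearly equal (SD 0.0041) and lay in the lower part of the array, at percentile 35.1 of all probe sets, and the CD24-CD29- mean lay at percentile 53.1. Rspo1 fell by 0.88 (SE 0.05, 95% interval -0.998 to -0.77), a 1.84-fold difference, with a limma adjusted p of 2.1e-06, and it was higher by 0.20 on poly-A scaled arrays. It was at -0.80 after quantile normalization and at -0.76 after cyclic loess. The values carry no detection calls, so it is not known whether the CD24+CD29+ level lies above background. Of 4416 genes with a mean level of 5 to 6, 44 (1.00%) had a lower difference. With a mean of 5.9996, Rspo1 lay at the upper edge of this class. The class had a median difference of -0.22, and the next, at levels of 6 to 7, -0.13.

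Rspo2 and Rspo3, which are better known from mesenchymal cells, were both dim in both groups. Rspo2 stood at 5.56, 5.89 and 5.67 against 6.11, 5.99 and 5.98, and Rspo3 at 5.72, 5.74 and 5.80 against 6.07, 5.91 and 6.03. In neither gene did the groups overlap. On the main probe sets Rspo2 fell by 0.32 (SE 0.09, limma adjusted p = 0.0098) and Rspo3 fell by 0.25 (SE 0.06, adjusted p = 0.0059), against a median of -0.22 for all genes at levels of 5 to 6. The other probe set of Rspo2 passed at -0.29, and that of Rspo3 did not pass, at 0.09 (95% interval -0.02 to 0.20). Neither gene passed after quantile normalization (-0.19 and -0.12) or cyclic loess (-0.19 and -0.12), and both were higher on poly-A scaled arrays, by 0.76 and 0.83. Rspo4, the remaining R-spondin, overlapped at 4.69 ± 0.09 against 4.68 ± 0.07 (mean ± SD, n = 3). Fibroblast markers moved the other way on the same arrays. Of 10, 9 were higher in CD24+CD29+ cells, with a median of 0.64 and Col1a1 at 0.69. At the list's median level of 7.92, 48.8% of all genes in the class were higher and 25.2% lower. The summed linear signal of the list was 10569 to 10972 against 4956 to 4962. The part of the fibroblast markers in the R-spondin values was not tested.

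Znrf3 and Rnf43, the paired ligases that R-spondins remove, differed in direction on the deposited scale. Znrf3 stood at 9.06, 9.03 and 9.03 against 8.64, 8.59 and 8.52. Its groups were well apart, and both of its probe sets were higher in CD24+CD29+ cells, by 0.46 (SE 0.05, 1.37-fold, limma adjusted p = 9.9e-05) and by 0.20 (SE 0.08, adjusted p = 0.040). The call of the second held only without CD24-CD29- replicate 2 when 1 array was left out, with an adjusted p of up to 0.13. The median difference at its level class of 8 to 9 was 0.25, and 32.9% of the genes in it had a higher difference than Znrf3. After quantile normalization and cyclic loess Znrf3 still passed, but at 0.25 and 0.24. Rnf43 was dim and its arrays scattered more, at 5.47, 5.11 and 5.31 against 5.81, 5.73 and 5.55. The closest arrays of the groups were 5.47 and 5.55. Rnf43 fell by 0.40 (SE 0.10, limma adjusted p = 0.0076), did not pass after quantile normalization or cyclic loess (-0.26 in both), and was higher by 0.68 on poly-A scaled arrays.

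Axin2, a scaffold of the complex that degrades beta-catenin and a widely used readout of Wnt activity, fell by 0.65 in CD24+CD29+ cells (SE 0.07, 95% interval -0.81 to -0.49), a 1.57-fold difference with a limma adjusted p of 6.3e-05. The arrays read 6.97, 6.92 and 6.93 against 7.61, 7.71 and 7.46. The groups were well apart, and the difference ran against the level class. Genes at levels of 7 to 8 had a median difference of 0.16, 48.8% of them were higher and 25.2% lower, and 7.52% had a lower difference than Axin2. After quantile normalization and cyclic loess Axin2 was at -0.78 in both cases, and on poly-A scaled arrays it was at 0.43. Its other probe set was among the dimmest of the array (percentile 8.25) and overlapped, at 4.79 ± 0.12 against 4.74 ± 0.03 (mean ± SD, n = 3).

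Lef1, a DNA-binding partner of beta-catenin that is also abundant in lymphocytes, stood at 6.38, 6.38 and 6.36 against 6.57, 6.41 and 6.66. The lowest CD24-CD29- array lay only just above the CD24+CD29+ arrays. Its difference of -0.18 (SE 0.07) was at the edge, with a limma adjusted p of 0.0499, and it turned to 0.91 on poly-A scaled arrays. The adjusted p ranged from 0.093 to 0.15 in the fits without any single CD24+CD29+ array, without CD24-CD29- replicate 1 and without CD24-CD29- replicate 3, and the call held without CD24-CD29- replicate 2. The other probe set, dimmer still, gave -0.17 (adjusted p = 0.017), a call lost without CD24+CD29+ replicate 3 or CD24-CD29- replicate 2 (adjusted p up to 0.065). Genes at levels of 6 to 7 had a median of -0.13. Of 7 lymphocyte markers, 4 were lower in CD24+CD29+ cells and 3 missed the threshold, with a median of -0.25 and levels of 4.60 to 6.51, where 38.4% to 55.5% of all genes in the level classes were lower. Their summed linear signal was 256 to 284 against 321 to 351, and their part in the Lef1 value was not tested.

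**Figure D3:**
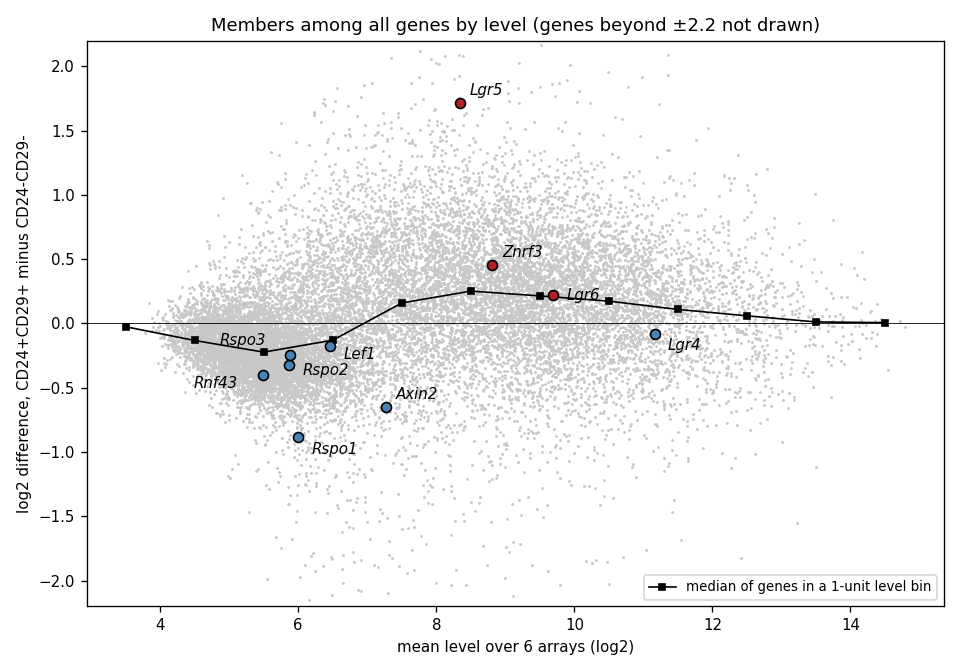
Difference against mean level over 6 arrays for all 18193 genes (grey), with the median of each 1-unit level class (black line) and the 10 members (red above 0, blue below); 40 genes beyond the plotted range are not drawn. Lgr5 lies far above the line and Rspo1 and Axin2 far below it, whereas Lgr6, Rspo3 and Lef1 lie close to it; poly-A scaling moves all points up together.

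The level classes matter for this family because 5 of the 6 lower members had a mean level below 7. At levels of 5 to 6, 55.5% of all genes were lower in CD24+CD29+ cells and 7.88% were higher, and at levels of 8 to 9 it was 18.3% and 57.5%. The lower quartile of the arrays was 5.20 to 5.27 in CD24+CD29+ cells and 5.37 to 5.41 in CD24-CD29- cells, so dim signal as a whole moved with the groups. Set against the median of its own class, Lgr5 was higher by 1.46, Znrf3 by 0.20 and Lgr6 by 0.01. Axin2 was at -0.81, Rspo1 at -0.66, Lgr4 at -0.19 and Rnf43 at -0.18. Rspo2 was at -0.10, Lef1 at -0.05 and Rspo3 at -0.03.

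**Figure D4:**
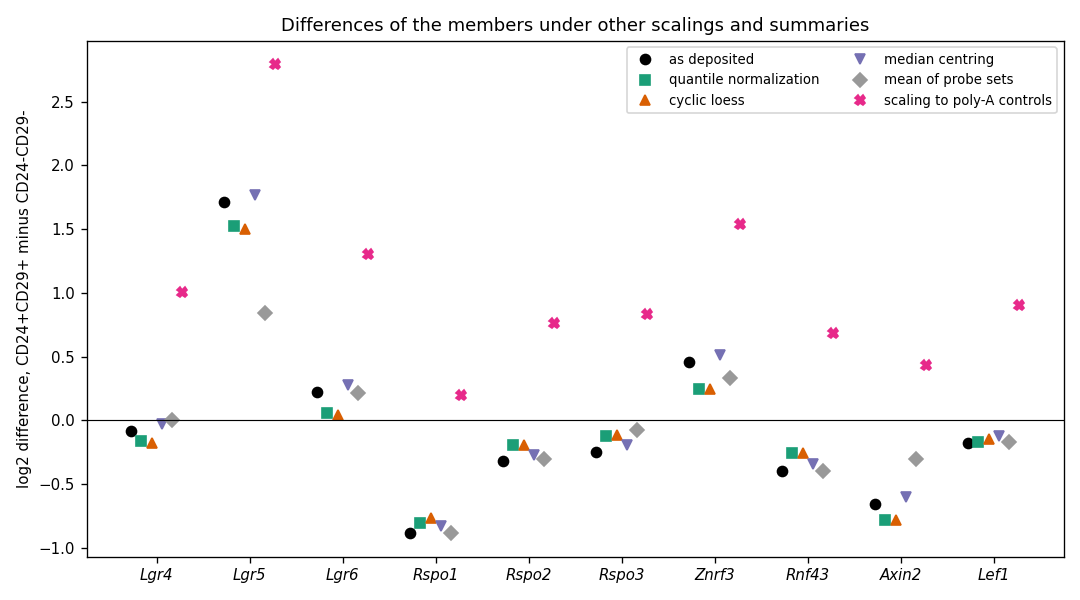
Difference of each member (log2, CD24+CD29+ less CD24-CD29-) as deposited and under 5 other scalings or summaries. Lgr5 and Znrf3 stay above 0 throughout, and Rspo1 and Axin2 stay below 0 except on poly-A scaled arrays (0.20 and 0.43). After quantile normalization and cyclic loess the differences of Lgr6, Rspo2, Rspo3 and Rnf43 shrink, as does that of Znrf3 (0.25 and 0.24). That of Lef1 changes little (-0.17 and -0.15).

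Members were also set against each other on the same array, since an equal shift of all probe sets on an array cancels in such a difference. The 9 pairs were the receptors, the ligands, the ligases and Axin2 with Lef1, each within its class, and Znrf3 with Axin2; they were chosen after the values were seen. Lgr5 minus Lgr4 ran from -1.96 to -1.88 on CD24+CD29+ arrays and from -3.91 to -3.57 on CD24-CD29- arrays, a shift of 1.79 (SE 0.10). Lgr5 moved apart from Lgr6 too, by 1.49 (SE 0.09). Znrf3 minus Rnf43 shifted by 0.86 (SE 0.11) and Znrf3 minus Axin2 by 1.11 (SE 0.06), with no overlap between the groups in either case. A shift tied to level does not cancel, and after quantile normalization the first of these was 0.50 and the second 1.03, while Lgr5 minus Lgr4 was 1.69. The ligands and Rnf43 are dim in both groups. No relative change is therefore read from their pairs, and the shift of Znrf3 minus Rnf43 above is given as a value only. For Rspo2 minus Rspo3 the groups overlapped (-0.07, SE 0.11, exact permutation test, 2-sided, p = 0.5). Each of the other 8 pairs gave p = 0.1 in the exact 2-sided permutation test, the smallest that 3 arrays against 3 allow, or 0.11 after Benjamini-Hochberg adjustment over the 9, so this design could not reach the threshold for a pair. No pair passed, and the shift within a pair does not say which member changed.

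Promoter windows from RefSeq (GRCm38.p6, from 250 bases before to 50 after a transcript start) were at hand for Axin2, Lef1, Lgr4, Lgr6, Rnf43 and Rspo1, in 10 windows. They were searched on both strands for the core letters bound by Tcf and Lef factors, CTTTGAT and CTTTGAA, which do not overlap each other. None of the 10 windows held a match, and of all 32851 windows 8.65% did, so the lack of a match in 10 says little. Lef1 had several windows, of which some overlapped. The Axin2 window surrounds a transcript start 2521 bases inside the annotated gene, so bases before that gene were not searched. The bases before the annotated gene start are shown for 3 members that were lower together in CD24+CD29+ cells on the deposited scale, in lower case throughout because no letters matched. Rspo1 lies at chr4:124986180-124986400, Rnf43 at chr11:87662837-87663086 and Lef1 at chr3:131110047-131110296, all on the plus strand, and their windows were 69.0%, 46.7% and 67.3% G and C, against a median of 52.7% over all windows.
Rspo1: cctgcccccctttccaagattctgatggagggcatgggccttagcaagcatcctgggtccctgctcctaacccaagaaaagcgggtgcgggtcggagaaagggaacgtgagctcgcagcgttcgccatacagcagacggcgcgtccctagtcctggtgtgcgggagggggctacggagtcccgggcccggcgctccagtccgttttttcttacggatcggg
Rnf43: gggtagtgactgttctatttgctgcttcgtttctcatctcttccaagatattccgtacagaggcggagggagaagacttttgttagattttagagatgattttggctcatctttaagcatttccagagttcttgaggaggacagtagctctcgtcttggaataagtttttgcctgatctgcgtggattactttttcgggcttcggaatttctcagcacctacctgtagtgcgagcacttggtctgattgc
Lef1: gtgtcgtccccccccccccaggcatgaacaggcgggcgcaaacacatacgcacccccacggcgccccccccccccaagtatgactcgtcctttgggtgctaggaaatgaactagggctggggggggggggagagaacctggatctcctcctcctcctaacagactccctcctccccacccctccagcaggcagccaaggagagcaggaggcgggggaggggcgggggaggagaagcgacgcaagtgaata

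The 10 genes were next set beside other genes of the pathway. Of 69 measured genes in these lists, 31 were higher and 24 lower in CD24+CD29+ cells by limma and 14 missed the threshold, with a median of 0.04, against -0.04 over all genes. No gene named from the lists for the size of its difference had a second probe set that passed the other way. Apc, Gsk3b, Csnk1a1 and Csnk1e, also given below, did. Ccnd1, Ascl2, Fzd6 and Tle3, which are among the calls counted, and Fbxw11, which missed the threshold, did too. Other Wnt targets and feedback genes split in direction on the deposited scale, as the members did, with 11 higher and 8 lower of 21 and a median of 0.21; their median level of 7.38 lies in a class of which 48.8% were higher and 25.2% lower. Fosl1, an AP-1 subunit gene, was higher by 0.81 (1.75-fold, SE 0.06), the hyaluronan receptor gene Cd44 by 0.67 and Wif1, which encodes a secreted Wnt inhibitor, by 0.61. Id2, an inhibitor of helix-loop-helix factors, fell by 1.09 (2.13-fold, SE 0.07), Bambi, a decoy receptor gene of the TGF-beta family, by 0.59 and the protease gene Mmp7 by 0.58. On poly-A scaled arrays Bambi and Mmp7 turned positive and Id2 was at -0.01, not past the threshold.

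Genes of Wnt receptors and co-receptors were mostly higher. Of 16, 11 were higher, 3 lower and 2 missed the threshold, with a median of 0.27, and their median level was 8.03, in a class where 57.5% of all genes were higher. Ryk and Ror1, which encode receptor kinase relatives that bind Wnt, were higher by 1.15 (2.21-fold, SE 0.05) and 0.84, and the Frizzled gene Fzd2 by 0.73. The Frizzled genes Fzd5 and Fzd3 fell by 1.11 (2.16-fold, SE 0.05) and 1.01, and Fzd10 fell by 0.24. On poly-A scaled arrays Fzd5 was at -0.03, Fzd3 at 0.07 and Fzd10 at 0.84.

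Of 20 genes of Wnt secretion and of the control of beta-catenin, 7 were higher, 6 lower and 7 not past the threshold, with a median of 0.06. Their median level was 9.60, in a class of which 56.1% were higher and 21.4% lower, and after quantile normalization or cyclic loess 4 were higher and 7 lower. Porcn, the enzyme that attaches the lipid Wnt proteins need for secretion, was higher by 0.90 (1.87-fold, SE 0.11). Dvl1, which relays the signal from Frizzled, was higher by 0.53 and Tnks2, a tankyrase that marks axin proteins for degradation, by 0.48. Gsk3a, a kinase gene, fell by 0.49, Axin1 by 0.48 and Amer1 by 0.43, and all 3 turned positive on poly-A scaled arrays. Among other genes of the complex that degrades beta-catenin, Apc and Apc2 were lower, at -0.38 and -0.40, and at 0.70 and 0.68 on poly-A scaled arrays. Gsk3b at 0.08, Csnk1a1 at 0.10 and Csnk1e at -0.10 did not pass. Apc, Gsk3b, Csnk1a1 and Csnk1e each had at least 1 other probe set that passed in the direction opposite to the main one. Axin1 and Axin2, the 2 axin genes, were thus both lower in CD24+CD29+ cells on the deposited scale.

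Genes of Tcf factors and their nuclear cofactors were mostly lower on the deposited scale. Of 11, 7 were lower, 2 higher and 2 missed the threshold, with a median of -0.30, while genes at the list's median level of 9.35 belong to the same class as the preceding list. On poly-A scaled arrays 9 of the 11 were higher, as were 98.5% of all probe sets. Tcf7l1 and Tcf7l2, relatives of Lef1, fell by 1.01 (2.01-fold, SE 0.06) and 0.80, and Bcl9, which couples beta-catenin to its coactivators, fell by 1.18 (2.26-fold, SE 0.10). On poly-A scaled arrays the pair of Tcf genes was at 0.08 and 0.29, and Bcl9 at -0.09. Tle1, a corepressor gene, was higher by 0.76 (1.70-fold) and Pygo2, a partner of Bcl9, by 0.27.

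**Figure D5:**
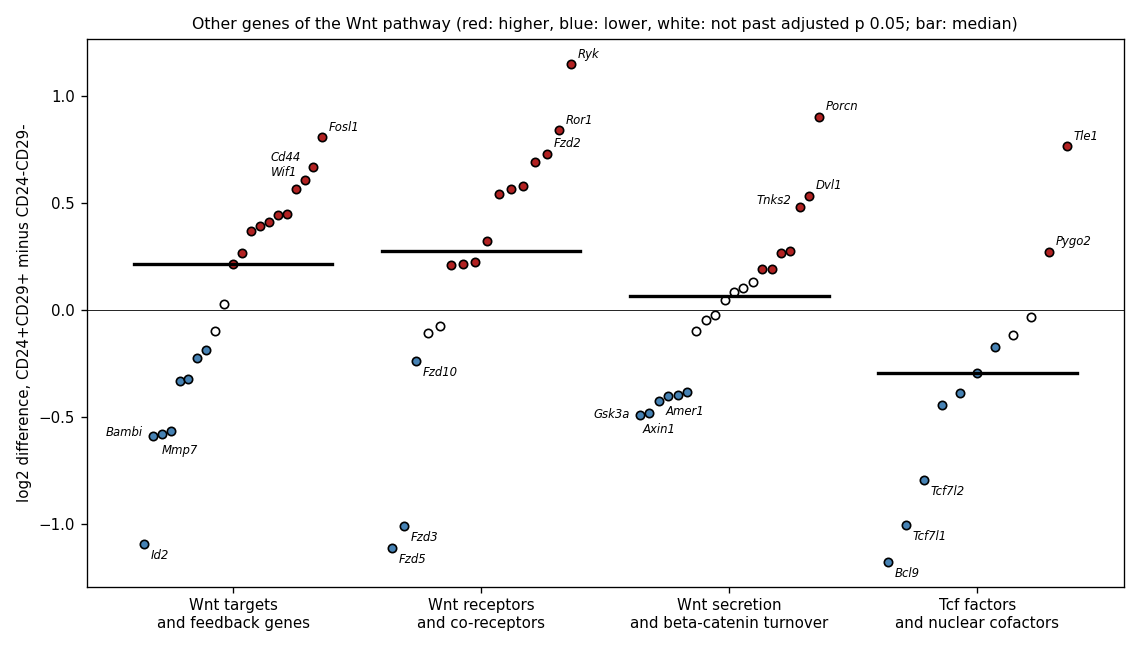
Differences of the other Wnt pathway genes by list (log2, CD24+CD29+ less CD24-CD29-), 1 point per gene, with the list's median as a bar. The medians are 0.21 for targets, 0.27 for receptors, 0.06 for secretion and beta-catenin turnover and -0.30 for Tcf factors and cofactors; on poly-A scaled arrays none of these genes is lower past the threshold, as for all but 0.66% of probe sets.

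Markers of the mammary layers moved on the same arrays. Of 10 basal and myoepithelial markers 6 were higher and 2 lower, with a median of 0.26. Their summed linear signal was 26588 to 27913 against 16845 to 17262. Those counts were near the shares of their level class, since at their median level of 9.82 56.1% of all genes were higher and 21.4% lower. Krt5 and Krt14, the brightest of the basal list, weigh most in its sum. The 2 lower basal markers were Mylk at -0.84 and Oxtr at -0.26. Of 12 luminal markers 3 were higher and 7 lower, with a median of -0.22 and a summed signal of 53035 to 54618 against 60445 to 60958. At their median level of 11.75, 48.0% of all genes in the class were higher and 29.3% lower. The 3 higher luminal markers were Esr1 at 1.11, Pgr at 0.86 and Foxa1 at 0.73, so neither list moved as a whole. Mylk, Esr1 and Pgr each had another probe set that passed the other way. The part of these shifts in the values of Lgr5, Rspo1 and Axin2 was not tested. Many genes followed the array profile of Lgr5. Of 9379 genes with a mean level of at least 7, 1820 had a Pearson correlation with Lgr5 of at least 0.99 over the 6 arrays, as any gene with a clear gap between 2 groups can. The 3 most alike were Niban2 (r = 0.9998, difference 0.50), Adamts5 (r = 0.9998, 1.07) and Sh3pxd2a (r = 0.9997, 0.74).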

How the data were processed

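The deposited values are log2 expression of 45101 probe sets on 6 arrays, made by the authors with RMA and Partek per the submitters' processing notes; the sources used here give no versions, settings or order. The values carry no detection calls, and the number of arrays limits the precision. Of the probe sets, 64 were controls, 34945 had 1 gene symbol in the platform's annotation, which can be old, 932 had several and 9160 had none there; the Entrez identifiers of 34741 were in the RefSeq table of GRCm38.p6 and no symbol changed.

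Groups were compared with limma 3.58.1 (R 4.3.3; lmFit and eBayes, no block) across all 45037 other probe sets, with Benjamini-Hochberg adjustment over all of them and a threshold of 0.05; the fit was tested on simulated data. A gene was read at its brightest single-symbol probe set, leaving out _x_at where another existed. Exact permutation tests used scipy 1.17.1. Replicate numbers in the titles are not said to pair arrays. Deviations from the group means correlated at 0.20, -0.04 and 0.05 for numbers 1, 2 and 3. With 3 arrays per group, these values cannot decide whether arrays were paired.

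The members and lists were chosen with earlier results of these data known. Named were all members, the sort genes, 7 marker genes, up to 3 genes per direction and Wnt list with the largest differences past the threshold, and the 3 profiles most like the member with the largest difference. Rspo4 and further genes of the complex that degrades beta-catenin were named besides. So were mammary layer markers that passed against most of their list, and Wnt list genes with another probe set past in the opposite direction. The alternatives were quantile normalization, cyclic loess, median centring, scaling to 24 poly-A control probe sets, leaving out the dimmest 40% of probe sets, 1 probe set per gene fitted alone, the mean over a gene's probe sets, _x_at allowed, an intensity trend, a replicate block and leaving out each array. Sequences are from RefSeq. Promoters of Lgr5, Rspo2, Rspo3 and Znrf3 were not analysed here.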

Additional observations from a re-analysis of the deposited data

How the results depend on the processing

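Over 16 alternatives Lgr5 and Znrf3 kept direction and call (0.84 to 2.79 and 0.24 to 1.54), as did Rspo1 (-0.90 to -0.76) and Axin2 (-0.78 to -0.30) in all except scaling to the poly-A controls. That scaling gave Lgr4 1.00, Rspo1 0.20, Rspo2 0.76, Rspo3 0.83, Rnf43 0.68, Axin2 0.43 and Lef1 0.91. By limma it made 98.5% of all probe sets higher and 0.66% lower, among them all 18 member probe sets and 10 member genes, with 0 lower (0 also at an unadjusted p under 0.05), so these counts say nothing particular of the members. It gave 20 higher among targets, 20 in secretion and beta-catenin turnover, 9 among Tcf factors and 0 lower, adjusted or not, in each of the 4 Wnt lists. It adds the same amount to every probe set on an array. Quantile normalization and cyclic loess each left 3 member genes and 3 member probe sets lower, Lgr4 among the genes, 4 higher genes in secretion and beta-catenin turnover and 1 among Tcf factors; the cause was not tested. Leaving out the dimmest 40% of probe sets left 5 member probe sets lower, since it removes probe sets, that of Rnf43 among them. The mean of probe sets put Lgr4 at 0.0073 and ended the call of Rspo3 (-0.08). Higher member probe sets numbered 3 to 5 when 1 array was left out. With a replicate block, 3 member genes were higher and 5 lower; Lef1 was lost (adjusted p = 0.056). Lef1 also missed with an intensity trend (0.066) and median centring (0.15), and over all alternatives its adjusted p ran from 2.0e-06 to 0.15. Without detection calls, it is not known which probe sets at levels below about 6 lie above background.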
